A study of Mus musculus with 25 samples.

Results

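The 7 genes Wfs1, Fibcd1, Calb1, Prox1, Nts, Cpne7 and Pkp2, all used as markers of hippocampal cells, were followed in mouse brain cortex RNA. They were taken by gene symbol from a count table of 21720 genes, and all 7 were among the 16515 genes that passed the filter on low counts. The libraries came from 25 male mice aged 6 months, 5 in each of 5 groups. The wild type group was C57BL/6J given vehicle. The other 20 mice were B6C3 mice with the genotype APPswe, PSEN1dE9, an amyloid model of Alzheimer's disease in which both transgenes are driven by the mouse prion promoter. One group of 5 had vehicle and is called the model control. Of the other 3, one had 5 mg/kg of the plant compound (-)-Vestitol, one had 5 mg/kg of the plant compound Salviolone, and the last, called the combination, had 2.5 mg/kg of each. Injections went into the abdomen once a day for 3 months. Wild type and model mice differed in strain as well as genotype, so the effects of strain and transgenes cannot be told apart.

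The hippocampus is a folded cortical structure whose principal neurons lie in fields called CA1, CA2 and CA3 and in the dentate gyrus, and each field has its own set of enriched genes. Wfs1 and Fibcd1 are widely used labels of CA1 pyramidal cells. Calb1 labels dentate granule cells and part of CA1, and Prox1 is the standard transcription factor label of dentate granule cells. None of the 7 genes is limited to the hippocampus: Wfs1 is also made in superficial cortex, amygdala and ventral striatum, Calb1 and Prox1 in cortical interneurons, and Nts, a neuropeptide gene, in hypothalamus and amygdala. In RNA from bulk tissue, fewer cells of a type and less RNA per cell cannot be told apart.

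In the files the genes lie on 7 chromosomes (mm39): Wfs1 at chr5:37123448-37146549, Fibcd1 at chr2:31703302-31736017, Calb1 at chr4:15881264-15908064, Prox1 at chr1:189850232-189902911, Nts at chr10:102317617-102326347, Cpne7 at chr8:123844117-123861921 and Pkp2 at chr16:16031182-16090576. RefSeq promoter sequence (GRCm38.p6) was matched for 4 of the 7: Wfs1, Fibcd1, Nts and Prox1. The 250 bases before the start of Nts and Wfs1 are shown because, of the 7 genes, Nts had the largest fold change and Wfs1 the smallest adjusted p between the combination and the model control. Nts is at chr10:102490419-102490668 and Wfs1 at chr5:36988983-36989232, both on the minus strand, and capitals mark the matches to the motifs searched.
Nts: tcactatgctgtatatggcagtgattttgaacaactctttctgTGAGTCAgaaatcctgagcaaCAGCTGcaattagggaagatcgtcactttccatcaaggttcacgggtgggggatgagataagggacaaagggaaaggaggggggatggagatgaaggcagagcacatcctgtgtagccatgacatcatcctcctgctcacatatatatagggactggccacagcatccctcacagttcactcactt
Wfs1: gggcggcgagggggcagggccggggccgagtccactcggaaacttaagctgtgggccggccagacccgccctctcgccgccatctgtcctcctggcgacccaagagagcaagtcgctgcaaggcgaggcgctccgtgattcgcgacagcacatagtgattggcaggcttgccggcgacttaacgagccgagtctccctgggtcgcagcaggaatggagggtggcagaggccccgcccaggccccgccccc
These sequences differ in base composition: GC makes up 48% of the Nts stretch and 69.6% of the Wfs1 stretch, beside a median of 52.4% over 32851 such stretches. Of the 5 motifs searched on both strands, Nts holds TGANTCA, the AP-1 motif, starting 207 bases before the gene start, and the E-box CAGCTG, starting 186 bases before it. TGANTCA is found in 6.75% of all 32851 stretches and CAGCTG in 13%. The other 3 motifs were TATAAA, present in 12.4% of all stretches, TGACGT, in 6.47%, and CACGTG, in 6.02%. None of the 5 is in the Wfs1 or Fibcd1 stretch, and the first of the Prox1 starts has TATAAA on the reverse strand, 34 bases before the start.

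Libraries held between 59376320 and 109776852 counts, and the combination group held the deepest, with 71606813 to 109776852. The genotype labels were checked first. In CPM, read counts scaled to library size, App measured 4262 ± 354 (SD, n = 5) in the model control and 1672 ± 165 in wild type, Prnp 1856 ± 146 and 652 ± 40.4, and all 20 model mice lay above all wild type mice for both. The pan-cortical gene Slc17a7, which encodes the main vesicular glutamate transporter of cortex, was present in every library at 839 to 1415 CPM. Of the other hippocampal markers, C1ql2 (dentate gyrus), Spink8 (CA1) and Lct averaged 2.24, 1.08 and 1.05 CPM over the 25 mice, and others of the same list, such as Zbtb20, Mpped1 and Rgs14, averaged 185, 166 and 44.2 CPM.

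Wild type mouse 2 stood apart from the other 4 wild type mice in 6 of the 7 genes. Its Cpne7 level was 22.8 CPM, where the other 4 averaged 109 ± 15.2 (SD, n = 4), a 4.76-fold gap. Nts was 8.26-fold, Pkp2 2.35-fold, Wfs1 2.27-fold, Fibcd1 1.71-fold and Calb1 1.32-fold below the mean of the other 4, and Prox1 did not share this, at a ratio of 0.990. Its level lay within the range of the model mice on vehicle or a single compound in all 7 genes. All fits include this mouse unless stated.

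**Figure D1:**
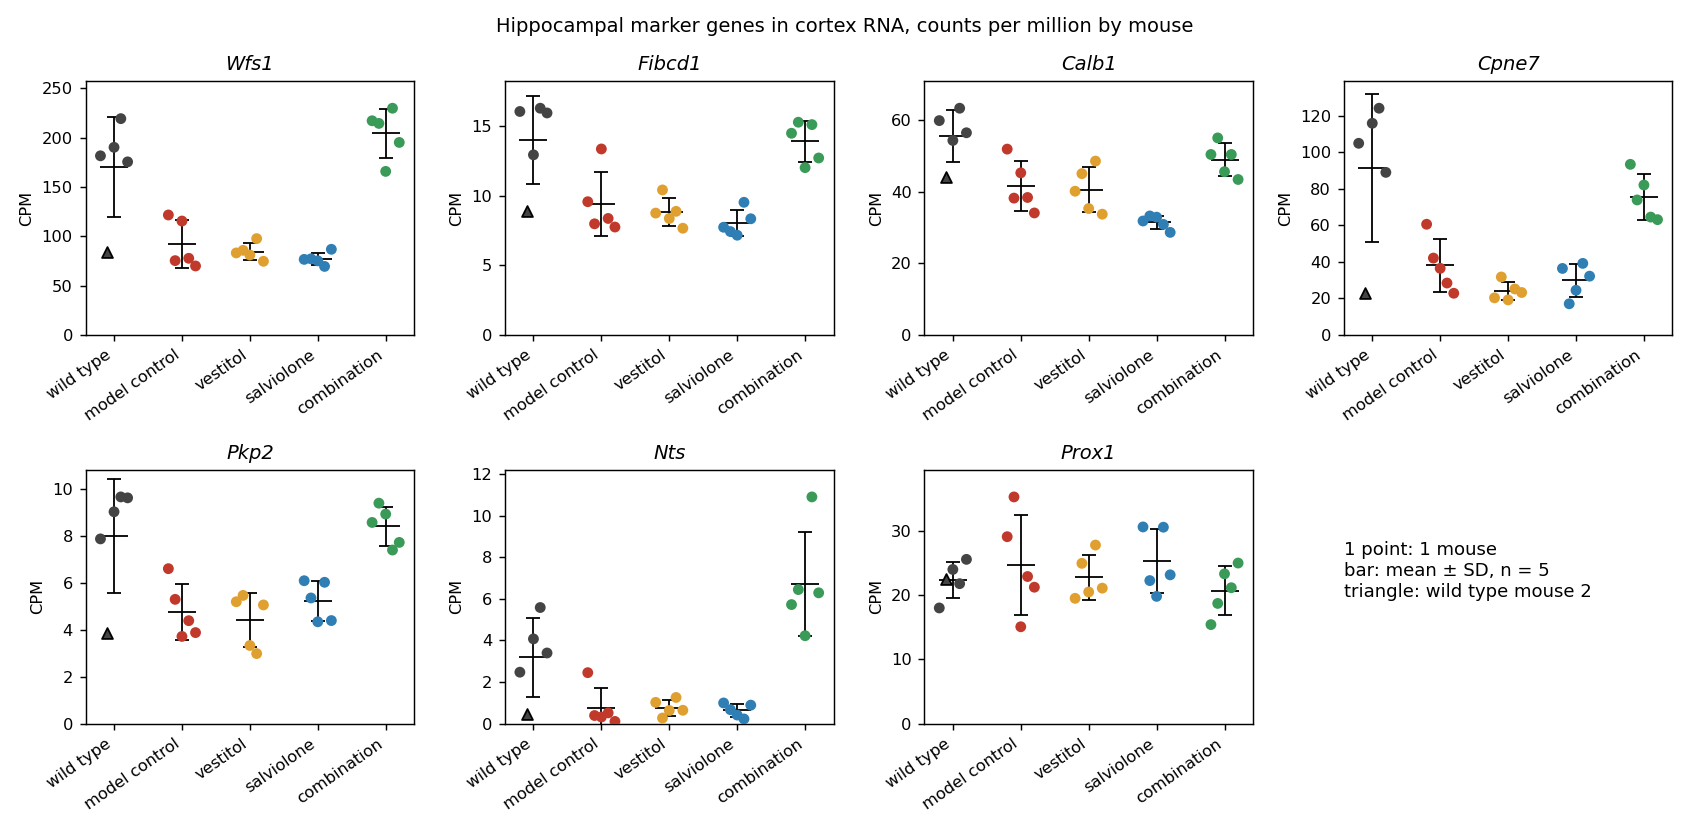
Level (CPM, y axis from 0) of the 7 genes in each of 25 mice, by group on the x axis; each point is 1 mouse, each bar the mean ± SD of 5, and the triangle wild type mouse 2. For Wfs1 the combination mice sit between 166 and 229.8 CPM, above all model mice on vehicle or a single compound, and the Prox1 points overlap in all groups.

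Wfs1, Fibcd1, Calb1, Cpne7, Pkp2 and Nts were lower in the model control than in wild type and Prox1 was not called, so 6 of 7 genes fell, beside 6.21% of all 16515 genes tested. The genes were chosen with this result known, so the count describes them and is no independent evidence. The fold changes ran from -0.42 (Calb1) to -2.09 (Nts) on the log2 scale, where the median of all genes lay between -0.00726 and 0.00406 in every comparison. In each of the 6, wild type and model control overlapped. Hypothalamic genes moved the same way, 5 of 16 lower, as described with the other brain regions.

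Wfs1 encodes a membrane protein of the endoplasmic reticulum and is mutated in Wolfram syndrome. Its level in wild type mice 1 to 5 was 182, 84.5, 190.2, 219 and 175 CPM, and in the model control 122, 75.3, 115, 77.7 and 69.9 CPM. Mice 1 and 3 of the model control were the highest of their group, and wild type mouse 2 was the only wild type mouse that overlapped with them. The means were 170.2 ± 50.8 CPM in wild type and 92.0 ± 24.5 in the model control (SD, n = 5 each), a log2 fold change of -0.89 ± 0.19 (SE, adjusted p = 0.00453). In the combination group the 5 mice measured 217, 214, 166, 229.8 and 195 CPM, all above the 122 CPM of the highest model mouse on vehicle or a single compound. Against the model control the log2 fold change was 1.15 ± 0.19 (adjusted p = 0.000513). The mice on vestitol were at 84.4 ± 8.45 CPM and those on salviolone at 77.0 ± 6.27, and every one of these 10 mice was below wild type mice 1, 3, 4 and 5.

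Fibcd1, which encodes a chitin-binding receptor of the cell surface, measured 16.03, 8.92, 12.9, 16.3 and 15.9 CPM in wild type. The model control mice were at 9.56, 7.97, 13.3, 8.36 and 7.74 CPM, so mouse 3 of that group lay above the lowest 2 of wild type. The log2 fold change was -0.58 ± 0.15 (adjusted p = 0.0141). The combination mice measured 14.5, 15.3, 12.0, 15.1 and 12.7 CPM, and 3 of 5 were above every model mouse on vehicle or a single compound. Their log2 difference from the model control was 0.57 ± 0.15 (adjusted p = 0.0121), with overlapping groups.

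Calb1 encodes calbindin, a calcium-buffering protein. Wild type mice ranged from 44.2 to 63.3 CPM (mean 55.6 ± 7.23), the model control from 34.0 to 51.9 (41.6 ± 7.04) and the combination from 43.4 to 55.0 (49.0 ± 4.56). The log2 fold change was -0.42 ± 0.11 in the model control against wild type (adjusted p = 0.0137). The combination was not called against the model control, at 0.24 ± 0.11 (adjusted p = 0.156). Salviolone mice had the lowest Calb1 of the 5 groups, 28.6 to 33.2 CPM, and none of the 5 reached the lowest model control mouse at 34.0 CPM. That difference was -0.40 ± 0.11 on the log2 scale, and it was not called (edgeR adjusted p = 0.167).

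Prox1, used as a label of dentate granule cells and also made in cortical interneurons, was called in none of the 10 comparisons made. Its group means were 22.4 ± 2.85 CPM in wild type, 24.7 ± 7.74 in the model control, 22.8 ± 3.49 with vestitol, 25.3 ± 5.01 with salviolone and 20.7 ± 3.79 with the combination. The model control held both the lowest and the highest mouse, at 15.1 and 35.3 CPM. Its log2 fold changes lay between -0.29 ± 0.18 (combination against salviolone, adjusted p = 0.31) and 0.18 ± 0.18 (salviolone against wild type, adjusted p = 0.562).

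Nts encodes the precursor of the neuropeptide neurotensin and, per gene length, had the lowest level of the 7 in every group, from 0.147 FPKM with salviolone to 1.60 FPKM with the combination. The 5 wild type mice were at 2.47, 0.470, 4.07, 5.58 and 3.40 CPM, and the model control at 2.45, 0.387, 0.315, 0.514 and 0.103 CPM. Mouse 1 of the model control stood apart from the other 4. The combination mice measured 5.73, 6.45, 4.23, 10.9 and 6.29 CPM, and all 5 were above the highest of the 15 model mice on vehicle or a single compound, 2.45 CPM. The log2 difference from the model control was 3.16 ± 0.67 (adjusted p = 0.00275), and 4.33 without model control mouse 1 (adjusted p = 0.000115). The model control against wild type gave -2.09 ± 0.65 (adjusted p = 0.0391), and -3.27 without model control mouse 1. In these libraries 3 counts correspond to 0.0273 to 0.0505 CPM, so the lowest values rest on few counts.

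Cpne7 encodes a copine, a protein that binds membranes when calcium is present. It measured 105, 22.8, 116, 124 and 89.1 CPM in wild type and 60.6, 42.1, 36.5, 28.4 and 22.8 CPM in the model control. Apart from mouse 2, every wild type mouse was above every model control mouse. The log2 fold change was -1.26 ± 0.34 (adjusted p = 0.0182). The combination mice were at 93.5, 74.0, 82.2, 64.6 and 63.2 CPM and did not overlap with the model control. Their log2 difference, 0.99 ± 0.33, missed the threshold (adjusted p = 0.0511) and passed it with DESeq2 (adjusted p = 0.0236) and with limma-voom with sample weights (adjusted p = 0.018).

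Pkp2 encodes plakophilin 2, a plaque protein of desmosome cell junctions. Its range was 3.85 to 9.66 CPM in wild type (mean 8.00 ± 2.43) and 3.71 to 6.60 CPM in the model control (4.77 ± 1.19). The log2 fold change was -0.75 ± 0.21 (adjusted p = 0.022). With the combination the mice were between 7.39 and 9.39 CPM, above all model control mice, a difference of 0.81 ± 0.21 (adjusted p = 0.00992).

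**Figure D2:**
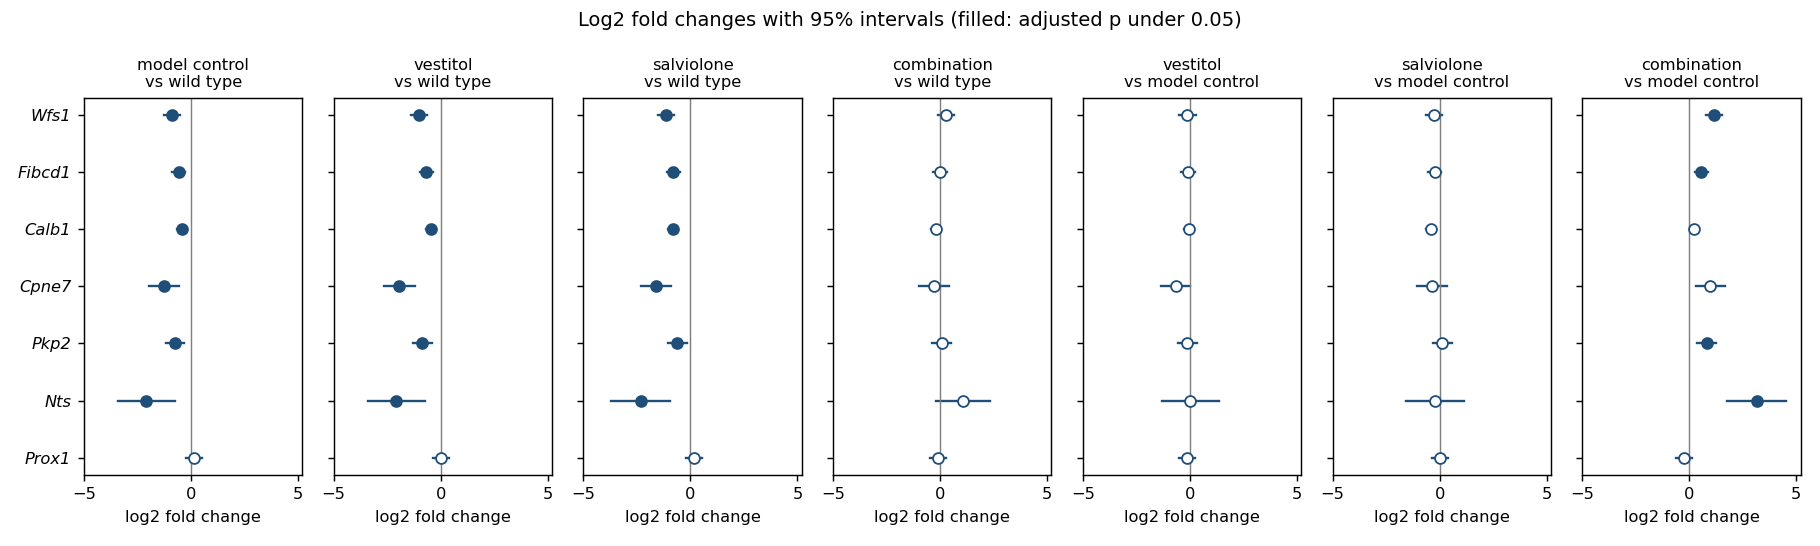
Log2 fold changes of the 7 genes (x axis) with 95% intervals, 1 panel for each of 7 comparisons; filled points have an adjusted p under 0.05. In the 3 left panels 6 of 7 points are filled and below 0, in the combination against wild type none is filled, and in the combination against the model control 4 are filled and above 0.

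Of the 7 genes, 4 were called higher in the combination than in the model control (Wfs1, Nts, Pkp2 and Fibcd1), beside 7.83% of all genes tested. With DESeq2 the count was 5, and so it was with limma-voom. Without the 3 deepest combination libraries 2 calls were left, for Wfs1 (1.23, adjusted p = 0.00998) and Nts (3.01, adjusted p = 0.0363). Fibcd1 (0.66, adjusted p = 0.0525) and Pkp2 (0.91, adjusted p = 0.0577) no longer passed. Over all genes, 914 of 17074 passed in that smaller fit, beside 2471 of 16515 with all libraries. With all libraries the log2 fold changes were 0.57 for Fibcd1 and 0.81 for Pkp2, so these did not shrink.

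Which genes were called in the model control against wild type depended on which mice were in the fit. The log2 fold changes of the 6 genes stayed below 0 with any 1 mouse left out, at -0.36 (Calb1) or lower. Over all genes the calls ran from 954 to 2928 with 1 mouse left out, beside 1913 with all mice. Wfs1 passed with any 1 of the 10 mice left out. Without wild type mouse 4, Wfs1 was the only gene of the 7 called, and Fibcd1 (-0.52, adjusted p = 0.0532) and Calb1 (-0.37, adjusted p = 0.0554) were lost. Cpne7 was lost without wild type mouse 4 or model control mouse 4 or 5 (-1.17 to -1.12, adjusted p from 0.0525 to 0.0634). Pkp2 was lost without any of wild type mice 3, 4 and 5 or model control mice 3, 4 and 5 (-0.71 to -0.67, adjusted p from 0.0501 to 0.0759). Nts was lost without any mouse other than wild type mouse 2 and model control mouse 1 (-2.16 to -1.78, adjusted p from 0.055 to 0.12). Without wild type mouse 2 all 6 passed, and the falls were larger, at -1.51 for Cpne7 (adjusted p = 0.000242) and -1.06 for Wfs1 (adjusted p = 1.57e-05). With the 10 mice of this comparison alone in the fit, the fold changes stayed within 0.01 of those above. Then 0 of 7 genes passed, beside 349 of all 15861 tested, with adjusted p from 0.0738 (Calb1) to 0.168 (Nts) for the 6 genes.

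Neither compound given alone was followed by a called change in any of the 7 genes. For vestitol against the model control, 0 of 7 passed, beside 0% of all genes, with log2 fold changes from -0.67 ± 0.33 (Cpne7, adjusted p = 0.674) to 0.02. The count was 0 without adjustment, with DESeq2 and with limma-voom. For salviolone against the model control 0 of 7 passed, beside 0.0242% of all genes, and Calb1, described above, was the 1 gene with an unadjusted p under 0.05; DESeq2 and limma-voom called 0.

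The compounds were given alone at the same dose and for the same time, which allows 1 pairwise comparison. Between vestitol and salviolone 0 of 7 genes were called, beside 0.684% of all genes, and the log2 differences ran from -0.32 to 0.37. Calb1 was higher with vestitol in 5 of 5 mice, 33.7 to 48.5 CPM beside 28.6 to 33.2 CPM. That difference was 0.37 ± 0.11 with a 95% interval from 0.14 to 0.59, and it did not pass (edgeR adjusted p = 0.142). Without adjustment it was the 1 gene of 7 that passed, and DESeq2 and limma-voom called 0.

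The combination held each compound at 2.5 mg/kg, a lower dose than in the single-compound groups, so the following differences set unequal doses side by side; both comparisons were added after the values were seen. Against vestitol 5 of 7 genes were higher with the combination, beside 11.3% of all genes. They were Nts (3.14 ± 0.67, adjusted p = 0.00168), Cpne7 (1.66 ± 0.34, adjusted p = 0.00138), Wfs1 (1.28 ± 0.19, adjusted p = 9.04e-05), Pkp2 (0.93 ± 0.21, adjusted p = 0.00237) and Fibcd1 (0.66 ± 0.15, adjusted p = 0.00259). In each of these 5 all combination mice lay above all vestitol mice, and the share of all genes with such a separation was not counted. Calb1 was not called against vestitol (0.27 ± 0.11, adjusted p = 0.078). Against salviolone 6 of 7 were higher, beside 9.66% of all genes. Calb1 was among them (0.64 ± 0.11, adjusted p = 0.000213), and Wfs1 had the smallest adjusted p (1.41 ± 0.19, adjusted p = 3.51e-05). The Pkp2 call (0.68 ± 0.21, adjusted p = 0.0244) was lost without salviolone mouse 3 or 5 or combination mouse 2 (0.62 to 0.64, adjusted p from 0.054 to 0.0634), and without the 3 deepest combination libraries (0.78, adjusted p = 0.0895).

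Set against wild type, the model mice on a single compound were lower in the same 6 genes as the model control, all but Prox1. With vestitol 6 of 7 genes were lower, beside 8.49% of all genes, led in size by Nts (-2.07 ± 0.65, adjusted p = 0.0328) and Cpne7 (-1.93 ± 0.34, adjusted p = 0.000783). With salviolone 6 of 7 were lower, beside 9.45%, and Calb1 fell in every mouse below the lowest wild type mouse (-0.82 ± 0.11, adjusted p = 3.55e-05). Nts with vestitol was lost without any of wild type mice 3, 4 and 5 or vestitol mice 2, 3 and 5 (-2.05 to -1.77, adjusted p from 0.0551 to 0.102). Pkp2 with salviolone (-0.61 ± 0.21, adjusted p = 0.0445) was lost without any of wild type mice 1, 3, 4 and 5 or salviolone mice 2, 3 and 5 (-0.62 to -0.54, adjusted p from 0.0693 to 0.119). Nts with salviolone (-2.32 ± 0.66, adjusted p = 0.0168) was lost without wild type mouse 4 (-2.03, adjusted p = 0.0534).

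Between the combination and wild type 0 of 7 genes were called, beside 2.23% of all genes, and the count was also 0 without adjustment, with DESeq2 and with limma-voom. The log2 fold changes ran from -0.28 (Cpne7) to 1.07 (Nts). Wfs1 differed by 0.26 ± 0.19 (adjusted p = 0.521). For Nts, 4 of 5 combination mice exceeded 5.58 CPM, the wild type maximum, and the difference was 1.07 ± 0.61 (adjusted p = 0.406). These comparisons share the wild type or model control mice and are not independent of each other.

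Genes from other brain regions moved with these groups, and their part in the results was not tested. On a list of hypothalamic genes, 5 of 16 tested were lower in the model control than in wild type (median log2 fold change -1.57) and 11 of 16 were higher in the combination than in the model control (median 2.90). Summed over the list, wild type mice had 109 to 616 CPM, model controls 82.1 to 268, vestitol mice 80.1 to 137, salviolone mice 83.7 to 99.6 and combination mice 414 to 695. Hap1, the gene of that list with the highest mean, was at 182 ± 77.9 CPM in wild type, 66.4 ± 30.4 in the model control and 205 ± 21.9 in the combination. Six6, a defining hypothalamic transcription factor, was at 0 in every model control and vestitol library. It was also low elsewhere, with a mean of 0.3002 CPM over all mice and 6.70 CPM in the highest library. Six6 did not pass the filter on low counts and was not tested, so its zeros show no group difference. Hcrt reached 0 in at least 1 library of wild type, model control, vestitol and combination. Wild type mouse 2 had the lowest hypothalamic score of its group, -1.38 on the mean log2 CPM scale beside 0.43 to 2.13 in the other 4. The score was -1.42 to 0.72 in the model control and 1.01 to 3.13 in the combination, without overlap. A fit with that score as a covariate therefore cannot separate score from group in this comparison. It gave 0 called genes of 7 in the combination against the model control, and 0 of all 16515 genes tested. The log2 fold changes were 0.49 for Wfs1 (adjusted p = 0.666), 1.07 for Nts (adjusted p = 0.728) and -0.011 for Cpne7. In the same fit the model control against wild type also gave 0 of 7, beside 105 of all 16515 genes, with Wfs1 at -0.48 (adjusted p = 0.202).

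**Figure D3:**
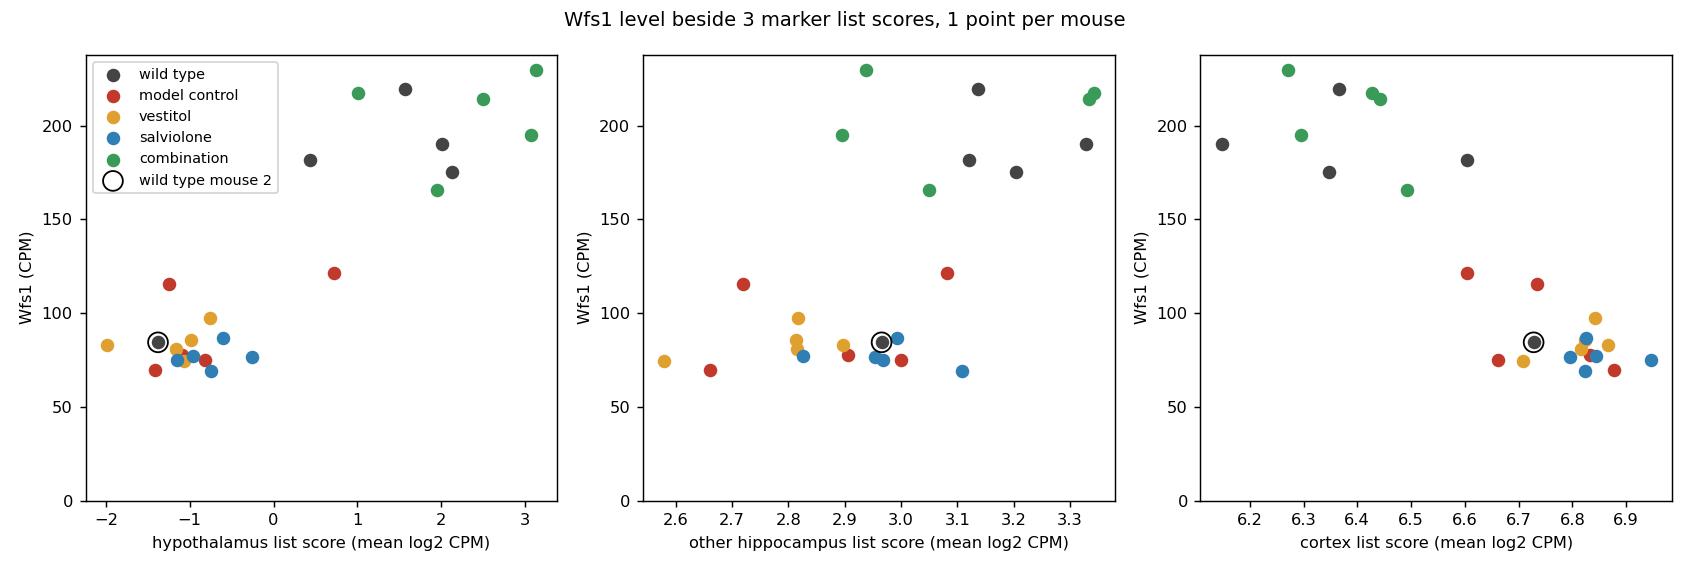
Wfs1 level (CPM, y axis) against the score of the hypothalamus, other hippocampus and cortex marker lists (mean log2 CPM, x axis), 1 point per mouse coloured by group, with wild type mouse 2 circled. The 5 combination mice and 4 of 5 wild type mice lie high on Wfs1, at hypothalamus scores of 0.43 or more, and wild type mouse 2 lies among the model mice on both. Model control mouse 1 has a hypothalamus score of 0.72 at a Wfs1 level of 122 CPM, below those wild type and combination mice.

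Striatal genes behaved otherwise: 0 of 12 were called in the model control against wild type, and 9 of 12 were higher in the combination than in the model control (median 0.63), with Ppp1r1b, Pde10a and Penk the genes of highest level. The list of cortical genes had most of its calls in the other direction. In the model control 5 of 12 were higher and 1 lower than in wild type, and in the combination 4 were lower and 1 higher than in the model control, at a summed level of 1781 to 2233 CPM in the combination and 2227 to 2747 in the model control. Slc17a7 was not called in either (adjusted p = 0.692 and 0.109).

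A list of 22 other hippocampal genes did not move in 1 direction. Of all genes tested 5.37% were higher in the model control than in wild type and 7.13% were lower in the combination than in the model control, beside the 6.21% and 7.83% given above for the opposite directions. In the model control 2 were lower than in wild type, Rgs14, a signalling regulator known from CA2 (-0.66 ± 0.16, adjusted p = 0.00937), and Map3k15 (-1.01 ± 0.25). Npnt (1.01 ± 0.29) and Pdzd2 (0.23 ± 0.07) were higher, and the median of the list was -0.17. In the combination against the model control 5 were higher: Amigo2 (0.80 ± 0.19), Rgs14 (0.80 ± 0.16), Map3k15 (1.02 ± 0.24), Cacng5 (1.19 ± 0.29) and Cpne4 (0.52 ± 0.15). Trpc6, Npnt and Stxbp6 were lower, and the median was 0.18. For Rgs14 the wild type range was 35.3 to 67.3 CPM, the model control range 25.8 to 46.6 and the combination range 53.7 to 70.5, so the combination mice were above all model control mice. C1ql2, Spink8, Lct, Dsp and Iyd were called in neither of these comparisons. Among them the dentate gene C1ql2 had -0.25 ± 0.40 and 0.30 ± 0.40. Mean CPM in wild type, model control and combination was 1.645, 0.923 and 1.496 for Spink8, and 1.453, 0.756 and 1.028 for Lct. For Dsp it was 2.159, 1.18 and 1.532, and for Iyd 0.3159, 0.3204 and 0.2516. Among these groups the model control had the lowest mean of Spink8, Lct and Dsp but not of Iyd, and the groups overlapped in each gene. With vestitol and salviolone the mean was lower still for Spink8 (0.767 and 0.556) and Dsp (0.609 and 0.953), but not for Lct (0.988 and 1.05). In wild type, Dsp had a median of 1.15 CPM and reached 6.75 CPM in the highest mouse.

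The relatives and partners of the 7 genes gave 4 higher and 5 lower of 24 in the model control (median -0.057), and 7 higher and 5 lower in the combination against the model control (median 0.031). Ntsr1, the high-affinity neurotensin receptor, was lower in the model control (-1.08 ± 0.22) and higher in the combination (1.10 ± 0.22), at 13.05 ± 5.07 CPM in wild type, 6.17 ± 1.29 in the model control and 13.2 ± 1.68 in the combination. Ntsr2 was higher in the combination (0.32) and Sort1, a sorting receptor that also binds neurotensin, lower (-0.21). Of the copines, Cpne2, Cpne5 and Cpne6 were lower in the model control (-0.62, -0.26 and -0.94) and Cpne9 higher (0.61). In the combination Cpne2, Cpne4, Cpne5 and Cpne6 were higher (0.61, 0.52, 0.49 and 0.72) and Cpne9 lower (-0.76). Calb2, the calretinin gene, was lower in the model control (-1.12 ± 0.34) and higher in the combination (1.79 ± 0.35), and Pvalb, the parvalbumin gene, went from higher (0.83) to lower (-0.83). None of the desmosome genes Dsp, Dsg2, Dsc2, Jup, Pkp1, Pkp3 and Pkp4 was called in either comparison. Of the endoplasmic reticulum genes, Cisd2 and Atf6 were higher in the model control (0.28 and 0.39) and lower in the combination (-0.21 and -0.41), and Hspa5 was called in neither.

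**Figure D4:**
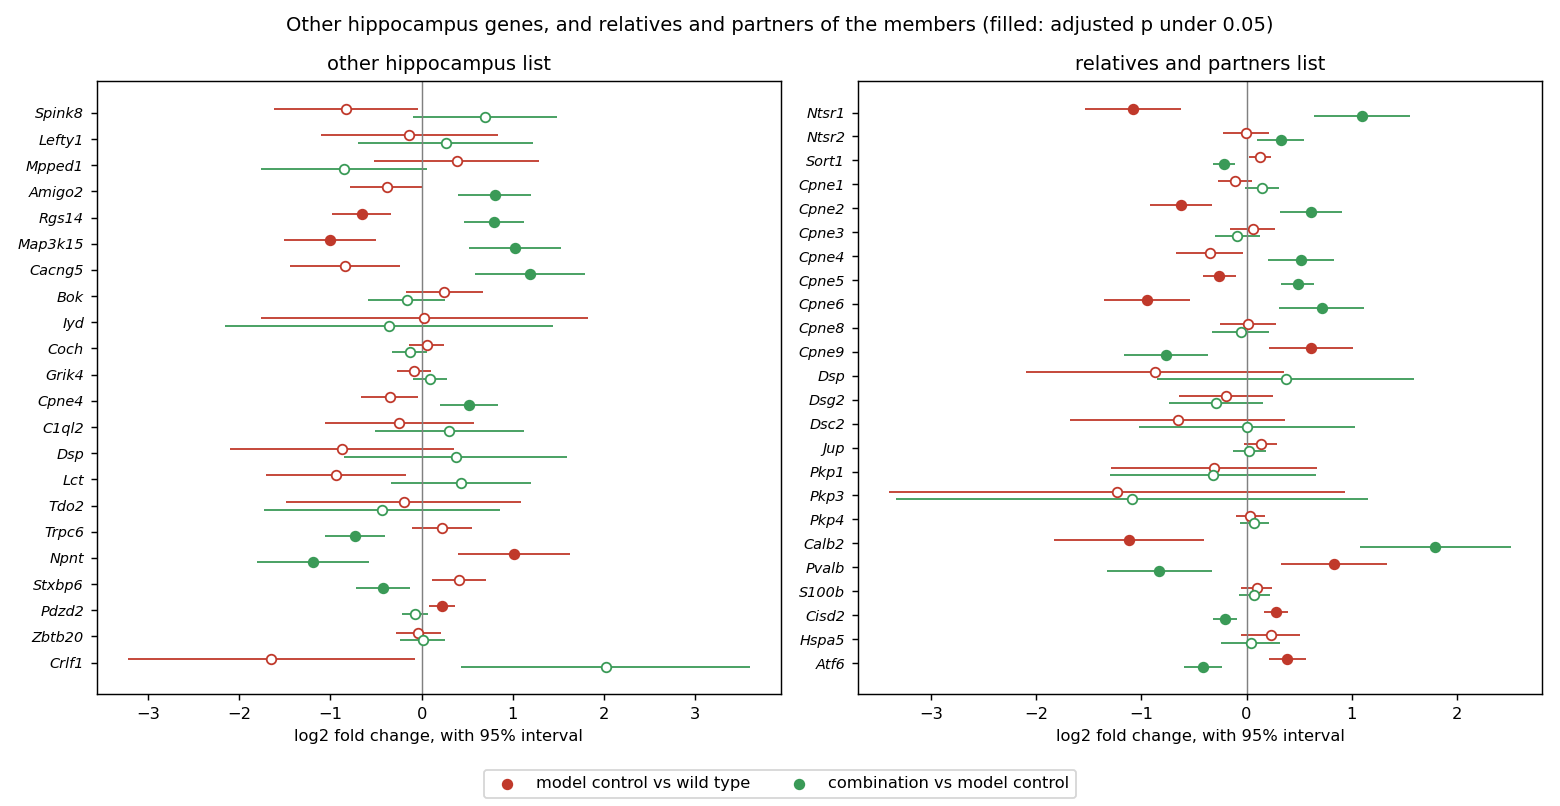
Log2 fold changes with 95% intervals (x axis) for the other hippocampus genes (left) and the relatives and partners (right), in the model control against wild type (red) and the combination against the model control (green); filled points have an adjusted p under 0.05. On the left 4 red and 8 green points are filled, and on the right 9 red and 12 green.

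Within groups, some of the 7 genes varied together from mouse to mouse. After subtracting each group's mean from log2 CPM, all 15 pairs that leave out Prox1 had a positive Pearson r over the 25 mice, from 0.33 to 0.79, and 6 of the 21 pairs passed for both coefficients after adjustment over 21 pairs (permutations within groups). Calb1 and Wfs1 had r = 0.77 (permutation adjusted p = 0.0013) and rho = 0.76 (permutation adjusted p = 0.0067). Without the 2 mice farthest from the median in Calb1, wild type mouse 2 and model control mouse 1, r was 0.70. Fibcd1 and Wfs1 had r = 0.79 (permutation adjusted p = 0.012), and 0.63 without wild type mouse 2. Without the 2 mice farthest from the median in Fibcd1, wild type mouse 2 and model control mouse 3, r was 0.62. Pkp2 and Wfs1 had r = 0.48 with wild type mouse 2 and -0.03 without it, so that relation rests on it, and over the 15 pairs r without that mouse ran from -0.03 to 0.75. Prox1 had r between -0.25 and 0.27 with the other 6, and none of these pairs passed for either coefficient (the lowest adjusted p was 0.27 for r and 0.18 for rho).

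The genes whose within-group variation was most like that of each of the 7 were found among 13447 genes. They are given as a description over 25 mice; all genes of a mouse share 1 library, with its depth and its piece of tissue. For Wfs1 they were Pnck (r = 0.92), Cdhr1 (0.92) and Tmem132e (0.92), for Nts Ahi1 (0.84), Nrp2 (0.84) and Cd200 (0.83), and for Cpne7 Tiam1 (0.89), Nr2f2 (0.88) and Rreb1 (0.86). For Calb1 they were Dclk2 (0.85), Nek10 (0.82) and Ptprr (0.82), for Fibcd1 Igsf3 (0.83), Rgs12 (0.82) and Nrxn2 (0.82), and for Pkp2 Mab21l1 (0.79), Nr2f2 (0.78) and Glud1 (0.77). Prox1 had Sh3d19 (0.90), Vipr2 (0.87) and Ret (0.87). Nr2f2, a transcription factor of caudally derived interneurons, was the only gene listed for 2 of the 7. Of the 3 genes nearest to Wfs1, Cdhr1 fell the most in the model control (-2.06 ± 0.50, adjusted p = 0.0108), and the 3 genes nearest to Prox1 were called in neither the model control against wild type nor the combination against the model control.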

How the data were processed

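RNA of brain cortex from 25 mice was sequenced, with 5 libraries in each of 5 groups taken from the labels. Per the submitters' processing notes, reads were trimmed with Trim Galore and aligned with STAR to mm39; no version, counting program, strand setting or annotation is stated in the sources used. The labels' protocols name both a TruSeq and a SMARTER kit without saying which library got which. The authors deposited raw counts per gene and FPKM values; FPKM was used for levels between genes and in alternatives. Of the count values from 4 to 39, 44.3% were multiples of 4, where 25% would be evenly spread; a fit on counts divided by 4 is among the alternatives.

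Counts were tested with edgeR 4.0.16 (quasi-likelihood F test, robust, two-sided) in R 4.3.3, in 1 fit of all 25 samples with TMM scaling (factors 0.980 to 1.04), after a filter at a minimum count of 10 that left 16515 of 21720 genes. p-values were adjusted over all 16515 by Benjamini-Hochberg, and a gene was called at an adjusted p under 0.05. CPM were computed on TMM-scaled library sizes, and levels are mean ± SD. Nothing in the labels pairs the mice beyond a replicate number. The p-values set each group difference against the spread between mice within groups, estimated from all 25 samples. DESeq2 1.42.0, limma 3.58.1 (voom, and log2 FPKM with 0.1 or 1 added) and the other alternatives are given in the closing section. List scores are the mean log2 CPM of a list's genes, with 2 added counts. Correlations used 100000 permutations within groups. Promoter letters are RefSeq's for GRCm38.p6. The script that fits the models was tested on simulated data.

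The 7 genes and all lists were chosen with earlier results of these data known. Named are all 7 genes, the called genes of the lists of other hippocampus genes and of relatives and partners (with 5 uncalled hippocampal genes and the uncalled desmosome genes named after their values were seen), the 3 genes nearest to each of the 7 by r, App and Prnp, and up to 3 genes of highest level in other lists, besides Six6 and Hcrt, named for their zeros, and Calb2, which 2 lists hold. Cpne4 and Dsp are also held by 2 lists, other hippocampus genes and relatives and partners, and count in each. Of 3 further lists, thalamus, choroid plexus and meninges, the values are in the closing section.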

Additional observations from a re-analysis of the deposited data

Results flagged for a closer look

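Of 50 groups of 5 mice checked for a mouse far from the others (7 genes and 3 list scores in 5 groups), 3 had one; chance flags about 1 group in 20. Nts in model control mouse 1 was 2.45 CPM, where the other 4 lay between 0.103 and 0.514. In the same mouse the hypothalamus list score was 0.72, where the other 4 lay between -1.42 and -0.81. The other hippocampus list score of vestitol mouse 5 was 2.58, where the other 4 lay between 2.81 and 2.90. Wild type mouse 2 was not among them, although it was the lowest of its group in 6 of the 7 genes.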

How the results depend on the processing

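Other scaling, filters and tools (RLE size factors, no filter, at least 1 CPM in 5 samples, DESeq2, limma-voom, counts divided by 4) changed at most 1 of 47 results for the 7 genes each, in most of them Cpne7 in the combination against the model control, which passed under several; limma on log2 FPKM changed 2 results at each setting, and with 1 added to FPKM, 1 of 7 genes passed in the combination against wild type. With the replicate number as a block, 6 and 4 genes were called in the model control against wild type and the combination against the model control, as without it. Of 47 results 1 changed, Pkp2 with salviolone against wild type (-0.63, adjusted p = 0.0502). Salviolone against the model control went from 4 to 29 called genes of all. Over all genes, the deviations of same-numbered mice had no correlation over 0.1 (0 of 5 pairs in any comparison). Whether the numbers pair the mice for some genes was not tested. With only the groups of a comparison, 0 of 7 genes passed in the model control against wild type. With the hypothalamus score as a covariate the counts were 0 in the model control and with vestitol against wild type, 3 with salviolone against wild type, and 0 in the combination against the model control, vestitol and salviolone; these directions turned: Cpne7 -0.011 and Calb1 -0.037 against the model control, Calb1 -0.045 against vestitol, and Nts 0.069 with vestitol against wild type. With the other hippocampus score the counts were 0 in the model control and with vestitol against wild type, 2 in the combination against the model control, 2 against vestitol and 1 between vestitol and salviolone. The causes were not tested. Without the 3 deepest combination libraries 2 genes passed against the model control, a setting chosen after seeing the data. Leaving out 1 mouse gave 1 to 6 called genes in the model control against wild type, 4 to 6 in the combination against the model control, 5 to 6 with vestitol and 4 to 6 with salviolone against wild type, 0 to 0 in the combination against wild type, and 5 to 6 in the combination against each compound. Prox1 ranged from -0.018 to 0.28 in the model control against wild type, below 0 without model control mouse 2, and from -0.058 to 0.077 with vestitol against wild type, below 0 without wild type mouse 1 (-0.045) or, of the vestitol mice, without mouse 2 (-0.013) or mouse 4.

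Counts over all genes moved by more than 1.5 times as follows. The model control against wild type had 1913 genes, 349 with only its groups, 105 with the hypothalamus score, 110 with the other hippocampus score and 954 to 2928 with 1 mouse left out. The combination against the model control had 2471, then 0 and 1082 with the scores and 914 without the deepest libraries. Vestitol against wild type had 2549, then 1527, 138 and 140, and 1632 to 3341 with 1 mouse left out; salviolone against wild type 2934, then 1873, 841 and 1812. The combination against wild type had 368, then 731 with DESeq2, 763 with limma-voom, 146 with only its groups, 156 with the hypothalamus score, 44 without the deepest libraries and 123 to 608 with 1 mouse left out. The combination against vestitol had 3609, then 13, 1433 and 1840, and against salviolone 2954, then 0 with the hypothalamus score and 1476 without the deepest libraries. Vestitol against the model control had 0, 44 with DESeq2 and up to 2 with 1 mouse left out. Salviolone against the model control had 4, from 0 with RLE, other filters or limma-voom, 1 with only its groups or the other hippocampus score and 8 with the hypothalamus score to 116 with DESeq2, and 0 to 30 with 1 mouse left out. Vestitol against salviolone had 113, 276 with DESeq2, 41 with only its groups and 14 to 204 with 1 mouse left out.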

Other observations

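Prox1 also marks caudally derived cortical interneurons, and other genes used to mark these cells differed between the groups although Prox1 was not called. Of 10 such genes, 6 were lower and 1 higher in the model control than in wild type (median -0.52), beside 6.21% and 5.37% of all genes. In the combination 5 were higher and 2 lower than in the model control (median 0.46), beside 7.83% and 7.13% of all genes. Reln, the gene of an extracellular guidance protein, was at 186 and 130.1 CPM in wild type and model control (-0.51 ± 0.10, adjusted p = 0.0021) and at 188 CPM with the combination (0.53 ± 0.10, adjusted p = 0.000908). Cnr1, the cannabinoid receptor gene, was called in neither (adjusted p = 0.402 and 0.204). Summed over the list, wild type mice had 535 to 713 CPM, model controls 395 to 554 and combination mice 608 to 679.

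Of 10 thalamic genes none was called in the model control against wild type and 1 was lower in the combination against the model control. Model control mouse 2 had both the highest thalamus list score of all mice (5.21) and the highest Prox1 (35.3 CPM). Vestitol mouse 4 had the highest Prox1 of its group (27.8 CPM) at the lowest thalamus score of its group (3.03). How Prox1 relates to this score was not tested. Of 12 choroid plexus genes, 1 was higher in the model control and 4 lower in the combination, and of 12 meningeal genes 2 were lower in the model control and none was called in the combination.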
